A study of Homo sapiens with 6 samples.

Results

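The 10 genes described here encode the subunits of the transcription factor NF-κB and its inhibitors. They were taken by gene symbol from tables of 21533 genes. All 10 were found and all 10 passed the filter on low counts. Transcripts were counted by sequencing RNA from LX-2 cells. LX-2 is an immortal human line derived from hepatic stellate cells, which turn into matrix-producing cells in injured liver. In 3 samples the cells had received an siRNA against PERK, and in 3 samples a control siRNA. PERK is a sensor of stress in the endoplasmic reticulum and is encoded by EIF2AK3. All 6 samples were given palmitic acid, a saturated fatty acid, and RNA was collected 24 h later. Every difference is therefore one of siRNA in lipid-treated cells of 1 line. The labels give neither the siRNA sequences nor the dose of palmitic acid, and nothing in them tells whether replicates were grown as separate cultures. The p-values therefore reflect the scatter among 6 samples alone, and that scatter may be technical.

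NF-κB is a dimer of Rel proteins. NFKB1 and NFKB2 encode long precursors that are trimmed into the DNA-binding subunits p50 and p52, while RELA, RELB and REL encode the subunits p65, RelB and c-Rel, which carry the domains that activate transcription. In a resting cell the dimers are held by IκB proteins. The IκB kinase complex marks these for destruction after a signal such as IL-1β or TNF, and the freed dimers switch on inflammatory genes together with the genes of their own inhibitors. In stellate cells NF-κB is known for driving chemokines and survival genes.

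Most of the 10 genes were lower with PERK siRNA, and 2 were higher. RELB fell the most, to 50.8% of its control level, and the inhibitor genes NFKBIE, NFKBIA, NFKBIB and NFKBIZ and the precursor genes NFKB2 and NFKB1 fell by less. RELA rose to 140.4% of its control level and TNFAIP3 to 153%. REL did not pass the test. In all, 7 members were called lower and 2 higher at an adjusted p under 0.05. The whole transcriptome differed widely, so that 69.5% of 12973 tested genes were called in either direction, 35.0% lower and 34.4% higher. For 9 of the 10 members the 3 samples of one group lay entirely above those of the other, as for 71.8% of all genes tested. Tested against a 1.2-fold change, 5 members were called lower and 2 higher, where 18.1% of all genes were called lower, 18.1% higher and 36.1% in either direction. The median log2 fold change was -0.39 over the members and 0.00 over all genes tested, and the median size regardless of direction was 0.43 over the members and 0.28 over all genes.

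**Figure D1:**
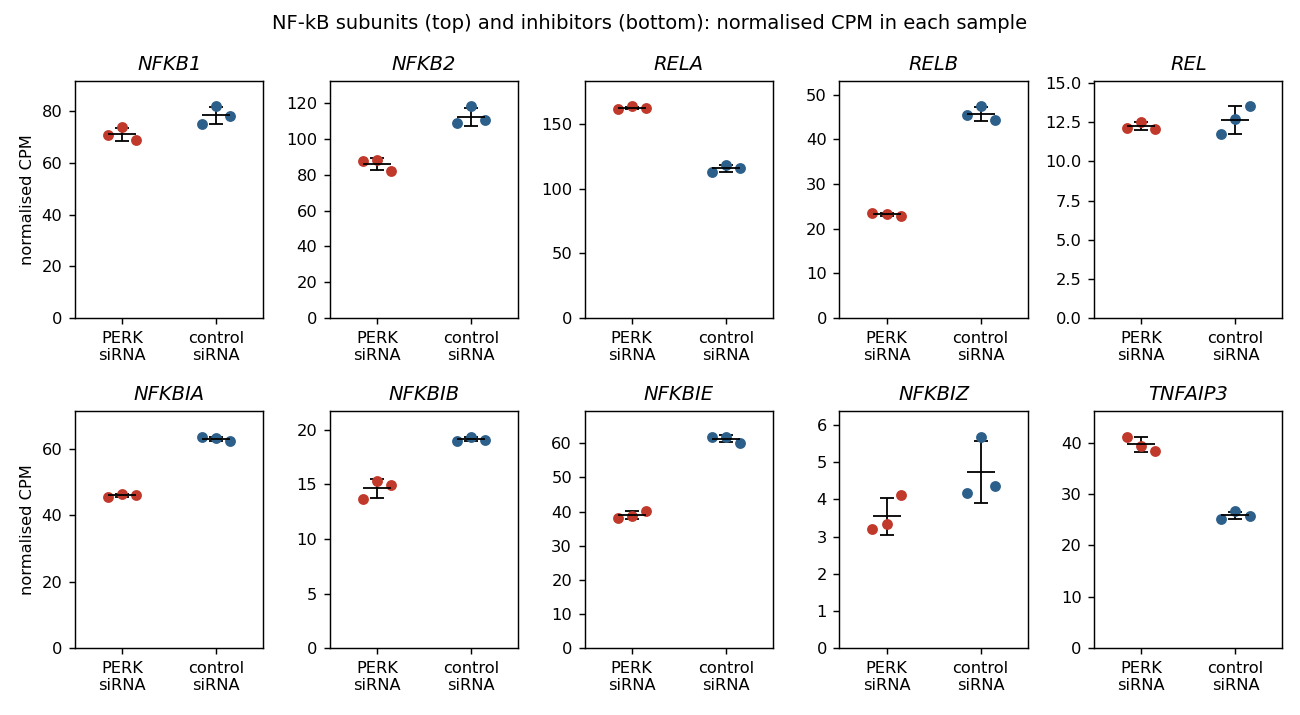
Normalised CPM (read counts scaled by library size) on the y axis for each of the 10 genes, with one dot per sample, PERK siRNA on the left and control siRNA on the right, and a bar for the mean ± SD (n = 3 each). The PERK siRNA dots lie above all control dots for RELA and TNFAIP3, below them for 7 genes, and among them for REL.

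The samples held 17937141 to 19535253 exon reads with PERK siRNA and 18560051 to 19585872 with control siRNA. A count of 3 reads, taken as the floor of detection, stood for 0.153 to 0.167 CPM before normalisation and covers counting error only. The targeted gene EIF2AK3 stood at 4.37, 4.96 and 5.51 normalised CPM with PERK siRNA and at 12.9, 13.0 and 13.9 with control siRNA. By the group means 37.3% remained. Of the EIF2AK3 exon bases 15.1% overlap antisense RNAs on the opposite strand. Of 12 stellate cell markers 8 were abundant enough to be tested, of which 4 were called higher (ACTA2, COL1A2, RGS5, VIM) and 3 lower (COL3A1, PDGFRA, PDGFRB), while DCN, LUM and DES stayed at 3 reads or fewer in every sample. ACTA2, the actin of activated stellate cells, was at 27.3 to 30.6 CPM with PERK siRNA and 6.57 to 8.87 CPM with control siRNA, and the collagen gene COL3A1 at 205.7 to 211.9 CPM with PERK siRNA and 376.4 to 407.1 CPM with control siRNA. Of 8 hepatocyte markers 6 had no read in any sample, and 4 of 8 macrophage and leukocyte markers had none. The hepatocyte list, mostly SERPINA1, summed to 3.69 to 4.35 CPM with PERK siRNA and 4.15 to 5.45 CPM with control siRNA. The summed level of the macrophage and leukocyte list was 72.5 to 74.8 CPM with PERK siRNA and 81.8 to 85.2 CPM with control siRNA, with 2 markers called lower. That of the endothelial list was 3.01 to 3.63 CPM with PERK siRNA and 11.3 to 11.6 CPM with control siRNA, with 1 marker called lower, and that of the cholangiocyte list, mostly SOX9, 86.3 to 96.9 CPM with PERK siRNA and 129.9 to 139.5 CPM with control siRNA, with 2 called lower. Among the endothelial markers PECAM1 was at 0.502 to 0.717 CPM with PERK siRNA and 8.94 to 9.04 CPM with control siRNA. KDR lay the other way, at 1.76 to 2.25 CPM with PERK siRNA and 1.33 to 1.62 CPM with control siRNA. The groups overlapped for VWF, at 0.335 to 0.981 CPM with PERK siRNA and 0.700 to 0.868 CPM with control siRNA. Among the macrophage and leukocyte markers CSF1R was at 0.279 to 0.775 CPM with PERK siRNA and 4.62 to 5.51 CPM with control siRNA. CD68, most of the summed level of that list, was at 64.4 to 66.5 CPM with PERK siRNA and 67.0 to 69.6 CPM with control siRNA. PTPRC, near the floor, lay the other way, at 0.516 to 0.613 CPM with PERK siRNA and 0.108 to 0.415 CPM with control siRNA. No marker of either list was called higher. Marker levels are CPM before normalisation, and the part of these markers in the results below was not tested. In samples of bulk RNA, fewer cells of a kind and less RNA per cell cannot be told apart.

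The promoters of these genes are shown because NF-κB binds a short element, κB, in many of its targets, among them genes of its own subunits and inhibitors. RefSeq windows of 300 bases around annotated start sites (GRCh38.p14) were matched by symbol for 8 of the 10 genes. RELB and NFKBIE were not matched. The κB decamer consensus was searched on both strands, and overlapping matches were counted as 1. It was found in a window of 7 of the 8 matched members, with RELA the exception in both of its windows. Of all 27305 genes with windows 13.3% held a match, of the tested genes 17.5%, and of the 28 tested genes with windows on a list of NF-κB targets 53.6%. A gene counted if any of its windows matched, and genes differ in their number of windows. By window, 9 of 14 member windows held a match, as did 11.3% of all 35116 windows. A match is a description of letters and not evidence that a factor was bound. The 250 bases before the NFKBIA start site (chr14:35404750-35404999, minus strand) are given whole, since this gene encodes the main feedback inhibitor, and for the other matched genes a stretch of 30 bases around a match is given. Capitals mark the match, and each sequence reads 5′ to 3′ on the strand of its gene.
NFKBIA: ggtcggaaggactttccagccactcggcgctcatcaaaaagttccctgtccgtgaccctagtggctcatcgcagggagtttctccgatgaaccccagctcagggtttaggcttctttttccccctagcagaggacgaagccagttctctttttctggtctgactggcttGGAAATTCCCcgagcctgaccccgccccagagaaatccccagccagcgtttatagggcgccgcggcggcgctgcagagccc
NFKB1: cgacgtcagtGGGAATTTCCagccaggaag
NFKB2: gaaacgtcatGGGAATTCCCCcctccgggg
REL: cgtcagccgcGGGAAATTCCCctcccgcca
NFKBIB: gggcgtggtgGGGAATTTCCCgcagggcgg
NFKBIZ: tttttggtctGGGAATTTCCagtgtgcaga
TNFAIP3, upstream match: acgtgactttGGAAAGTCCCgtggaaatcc
TNFAIP3, downstream match: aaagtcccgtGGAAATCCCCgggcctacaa

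These stretches lie at chr4:102501300-102501329 for NFKB1, chr10:102394461-102394490 for NFKB2 and chr2:60881517-60881546 for REL, all on the plus strand. The others lie at chr19:38899931-38899960 for NFKBIB, chr3:101827757-101827786 for NFKBIZ, and chr6:137867182-137867211 and chr6:137867194-137867223 for TNFAIP3, also on the plus strand. In 5 of the 7 genes a match held the 10 letters in capitals for NFKB1, on either strand. Of 13 matches in all 12 began before the RefSeq start site of their window, 8 of them within 100 bases of it. The gene places given below come from GENCODE, where starts can differ. The matches shown for NFKB2, REL, NFKBIB and TNFAIP3 lie inside those gene places. Of the members with a match, TNFAIP3 was higher with PERK siRNA, and NFKB1, NFKB2, NFKBIA, NFKBIB and NFKBIZ were lower. REL did not pass the test.

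**Figure D2:**
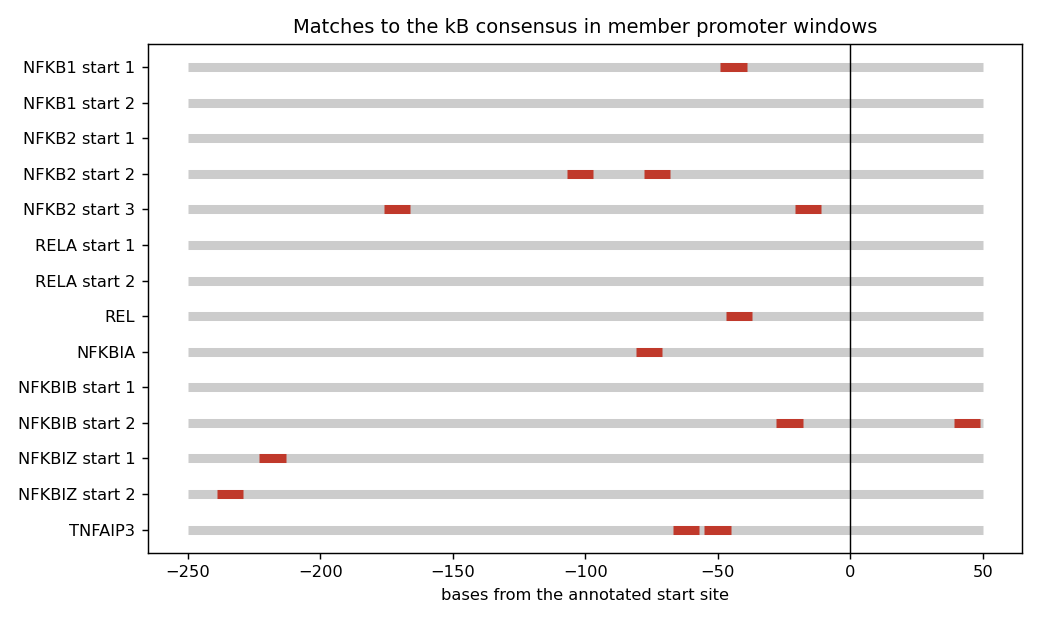
Distance in bases from the annotated start site on the x axis, with a grey bar for each promoter window of the 8 matched genes and red blocks for matches to the κB consensus. Of 14 windows 9 held a match, and 8 of the 13 matches began within 100 bases before a start site.

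The subunits moved apart. RELA (ENSG00000173039; chromosome 11, 65653596 to 65663094, minus strand, GRCh38) encodes p65, the activating subunit of the classical dimer. It stood at 161.6, 163.4 and 161.9 normalised CPM with PERK siRNA and at 112.6, 118.0 and 116.0 CPM with control siRNA. All PERK siRNA samples were higher, and they lay within a narrower range than the controls. The means were 162.3 ± 0.94 CPM with PERK siRNA and 115.6 ± 2.74 CPM with control siRNA (SD, n = 3 each). The fitted log2 fold change was 0.49 (SE 0.03, adjusted p = 3.3e-15 by edgeR's quasi-likelihood test, which gave all such values below). RELB (ENSG00000104856; chromosome 19, 45001430 to 45038198, plus strand) encodes the subunit that pairs mainly with p52 in the alternative pathway. It stood at 23.4, 23.3 and 22.9 CPM with PERK siRNA and at 45.5, 47.4 and 44.3 CPM with control siRNA. The lowest control was far above the highest PERK siRNA sample. The means were 23.2 ± 0.28 CPM with PERK siRNA and 45.7 ± 1.56 CPM with control siRNA (SD, n = 3 each). The log2 fold change of -0.98 (SE 0.05, adjusted p = 1.4e-16) was the largest of the members in either direction.

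The precursor genes were both lower, to different degrees. NFKB2 (ENSG00000077150; chromosome 10, 102394110 to 102402529, plus strand) encodes p100, the source of p52, which also holds RelB in the cytoplasm until it is trimmed. It stood at 87.6, 88.0 and 81.8 CPM with PERK siRNA and at 108.5, 118.0 and 110.4 CPM with control siRNA. The groups did not overlap. The log2 fold change was -0.39 (SE 0.04, adjusted p = 2.5e-10). NFKB1 (ENSG00000109320; chromosome 4, 102501329 to 102617302, plus strand) encodes p105, the source of p50. It stood at 70.5, 73.7 and 68.8 CPM with PERK siRNA and at 75.0, 81.7 and 78.2 CPM with control siRNA. The highest PERK siRNA sample and the lowest control sample lay close together, and the log2 fold change was only -0.14 (SE 0.04, adjusted p = 0.0021). NFKB1 was not called against a 1.2-fold change.

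REL (ENSG00000162924; chromosome 2, 60881521 to 60931610, plus strand) encodes c-Rel, known best from lymphocytes. It stood at 12.2, 12.5 and 12.1 CPM with PERK siRNA and at 11.7, 12.7 and 13.5 CPM with control siRNA. The PERK siRNA samples fell inside the range of the controls. The log2 fold change was -0.05 (SE 0.08, adjusted p = 0.64), which does not show that the level was the same. Of the REL exon bases in the GENCODE annotation 43.3% also belong to a non-coding RNA on the same strand, AC010733.2, and these counts cannot tell reads of the pair apart.

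**Figure D3:**
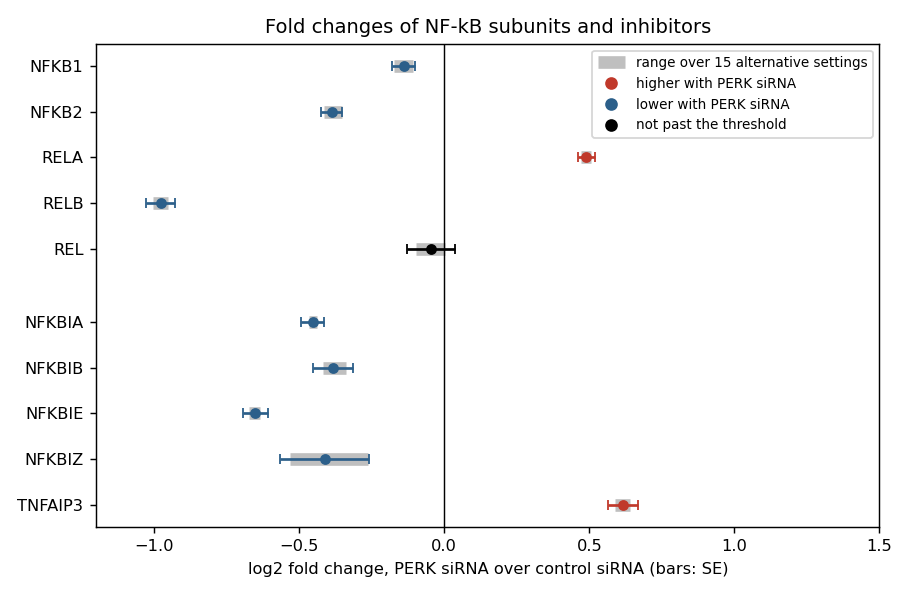
Log2 fold change of PERK siRNA over control siRNA on the x axis for the 5 subunit genes (above) and the 5 inhibitor genes (below), with dots for the fitted value, bars for its SE and grey bands for the range over 15 alternative settings. RELB at -0.98 and TNFAIP3 at 0.62 mark the ends, and REL at -0.05 lies with its band on 0.

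The IκB genes were lower together. NFKBIA (ENSG00000100906; chromosome 14, 35401511 to 35404749, minus strand) encodes IκBα, the inhibitor that is degraded and remade fastest. It stood at 45.5, 46.5 and 46.3 CPM with PERK siRNA and at 63.7, 63.2 and 62.5 CPM with control siRNA. Both groups were tight and far apart. The log2 fold change was -0.45 (SE 0.04, adjusted p = 2.0e-11). NFKBIE (ENSG00000146232; chromosome 6, 44258166 to 44265788, minus strand) encodes IκBε, an inducible inhibitor of p65 and c-Rel dimers. It stood at 38.1, 38.8 and 40.2 CPM with PERK siRNA and at 61.9, 61.9 and 60.1 CPM with control siRNA. No PERK siRNA sample came near the controls, and the log2 fold change of -0.65 (SE 0.04, adjusted p = 2.5e-14) was the largest fall among the inhibitor genes. NFKBIB (ENSG00000104825; chromosome 19, 38899700 to 38908893, plus strand) encodes IκBβ, a more slowly degraded relative. It stood at 13.7, 15.3 and 14.9 CPM with PERK siRNA and at 19.0, 19.4 and 19.1 CPM with control siRNA. The PERK siRNA samples were all lower, and the fitted log2 fold change was -0.38 (SE 0.07, adjusted p = 1.6e-05). Of its exon bases 1.72% overlap the gene SIRT2 on the opposite strand.

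NFKBIZ (ENSG00000144802; chromosome 3, 101827991 to 101861022, plus strand) encodes IκBζ, a nuclear relative that works with p50 at some target genes. It was the scarcest member by reads, with 57, 65 and 79 reads with PERK siRNA and 82, 106 and 84 with control siRNA. In normalised CPM these were 3.19, 3.33 and 4.11 with PERK siRNA and 4.17, 5.69 and 4.35 with control siRNA. The groups did not overlap, but the third PERK siRNA sample lay just under the lowest control, and the second control sample stood above the rest. The log2 fold change was -0.41 (SE 0.15, adjusted p = 0.018). Without control sample 2 it was -0.26 (adjusted p = 0.16), and the call was also lost without PERK siRNA sample 1 (adjusted p = 0.077), without PERK siRNA sample 2 (adjusted p = 0.073) and with DESeq2 (adjusted p = 0.083), with adjusted p of 0.0076 to 0.16 over all alternatives.

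TNFAIP3 (ENSG00000118503; chromosome 6, 137867188 to 137883312, plus strand) encodes A20, an enzyme that edits ubiquitin chains on signalling proteins upstream of the IκB kinases and so dampens NF-κB. It was the one inhibitor gene that rose. It stood at 41.1, 39.4 and 38.4 CPM with PERK siRNA and at 25.2, 26.6 and 25.7 CPM with control siRNA. All PERK siRNA samples were above all controls. The means were 39.6 ± 1.41 CPM with PERK siRNA and 25.8 ± 0.70 CPM with control siRNA (SD, n = 3 each). The log2 fold change was 0.62 (SE 0.05, adjusted p = 8.2e-12). Of its exon bases 1.88% overlap an antisense RNA, and 734, 770 and 737 reads with PERK siRNA stood against 496 in each control sample.

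Levels of different genes were compared in the deposited TPM, which are scaled by exon length. With PERK siRNA RELA was the highest of the 10 at 140.9 ± 1.76 TPM, clear of NFKB2 at 78.8 ± 3.40 TPM and NFKBIA at 71.6 ± 1.25 TPM (SD, n = 3 each). With control siRNA NFKB2 at 103.6 ± 5.40 TPM, RELA at 100.8 ± 2.89 TPM and NFKBIA at 98.5 ± 1.51 TPM had overlapping ranges from one to the next. NFKB1 and NFKBIE had overlapping ranges with PERK siRNA, at 53.1 ± 2.17 and 52.5 ± 1.46 TPM, as had RELB and NFKB1 with control siRNA, at 63.1 ± 2.67 and 58.8 ± 2.84 TPM. TNFAIP3 ranked above NFKBIB with PERK siRNA, at 28.0 ± 0.94 and 21.9 ± 1.40 TPM, and below it with control siRNA, at 18.4 ± 0.62 and 28.7 ± 0.52 TPM. REL and NFKBIZ were lowest in both groups, with 3.33 ± 0.088 and 2.47 ± 0.34 TPM with PERK siRNA and 3.46 ± 0.23 and 3.32 ± 0.61 TPM with control siRNA, where their ranges overlapped. The rank of REL rests on an exon length of 12775 bases, the longest of the 10, where NFKBIZ came next with 4979.

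RELA made up a larger part of the subunit transcripts with PERK siRNA and RELB a smaller part, described here without a test. Of the summed TPM of the 5 subunit genes, RELA took 45.4, 45.3 and 46.6% with PERK siRNA and 30.6, 30.1 and 31.0% with control siRNA. RELB took 10.4, 10.2 and 10.4% with PERK siRNA and 19.6, 19.1 and 18.7% with control siRNA. The shares of NFKB1 overlapped, at 17.2 ± 0.32% with PERK siRNA and 17.8 ± 0.22% with control siRNA (SD, n = 3 each). There were 4.42 ± 0.057 RELA transcripts per RELB transcript with PERK siRNA, against 1.60 ± 0.050 with control siRNA, in TPM (SD, n = 3 each). The ratio of RELA to NFKBIA, the subunit to its main inhibitor, was 1.97 ± 0.016 with PERK siRNA and 1.02 ± 0.031 with control siRNA. The summed level of the subunit genes was 301.3 to 315.6 TPM with PERK siRNA and 320.3 to 345.1 TPM with control siRNA, and that of the inhibitor genes 172.8 to 178.8 TPM with PERK siRNA and 227.0 to 236.3 TPM with control siRNA. Within the inhibitor genes TNFAIP3 took 15.9 ± 0.78% of the sum with PERK siRNA and 7.92 ± 0.18% with control siRNA, and NFKBIE took 29.8 ± 0.50% with PERK siRNA and 35.7 ± 0.22% with control siRNA. These are shares of mRNA and say nothing of protein.

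**Figure D4:**
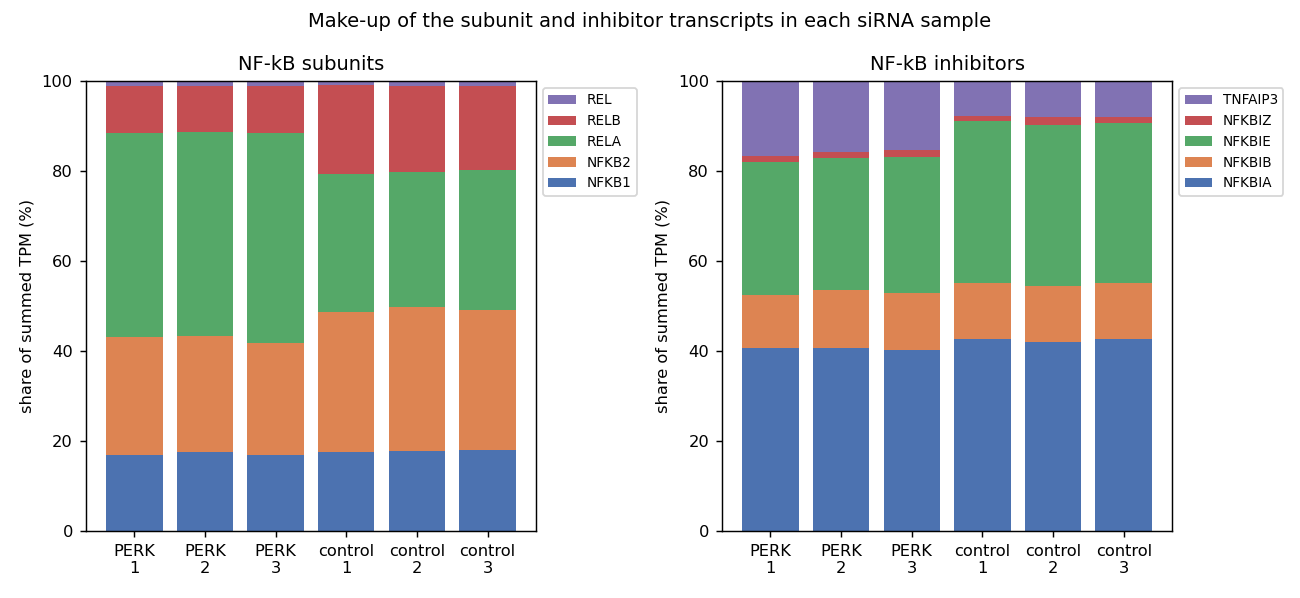
Share of summed TPM (%) on the y axis for the 5 subunit genes (left) and the 5 inhibitor genes (right), with one stacked bar per sample, PERK siRNA samples to the left of control siRNA samples. RELA takes 45.3 to 46.6% of the subunit sum in the PERK siRNA samples and 30.1 to 31.0% in the controls.

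Genes that feed the pathway moved both ways. Of all genes tested 69.5% were called, 35.0% lower and 34.4% higher, with a median log2 fold change of 0.00. Of 14 tested genes of the IκB kinases and the kinases and adaptors above them, 7 were lower and 5 higher (85.7%). Their median log2 fold change was -0.08. The smallest adjusted p belonged to TAB2, whose product is an adaptor of TAK1, the kinase that activates the IκB kinases. TAB2 was at 140.1 ± 2.22 CPM with PERK siRNA and 48.0 ± 1.04 CPM with control siRNA (SD, n = 3 each), and its log2 fold change was 1.54 (SE 0.03, adjusted p = 2.4e-25). MAP3K3, encoding the upstream kinase MEKK3, rose by 1.34 and MAP3K7, encoding TAK1 itself, by 0.56 on the log2 scale. MAP3K14, encoding NIK, the kinase of the alternative pathway, fell by 0.29. Of the subunits of the kinase complex, chosen after their values were seen, CHUK fell by 0.30 on the log2 scale, IKBKB by 0.10 with overlapping groups, and IKBKG did not pass the test (-0.06, adjusted p = 0.20).

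Among the ubiquitin editors and adaptors, 13 of 23 tested genes were lower and 8 higher (91.3%, beside 69.5% of all genes tested). Their median was -0.20. With unique exon reads alone 13 were lower and 7 higher. RNF31, called higher with overlapping groups, had 1.57% of its reads placed uniquely and ITCH, called lower, 50.5%, both chosen after their values were seen. BIRC2, encoding cIAP1, a ubiquitin ligase of the TNF receptor complex, was at 61.7 ± 2.14 CPM with PERK siRNA and 122.7 ± 3.10 CPM with control siRNA (SD, n = 3 each), with a log2 fold change of -0.99 (adjusted p = 2.0e-20). RNF11, a partner of A20, fell by 0.91 and OTULIN, which removes linear ubiquitin chains, by 0.80 on the log2 scale. The receptor proteins of the ligase that recognises phosphorylated IκB went apart: FBXW11 fell by 0.73, while BTRC, chosen after its values were seen, rose by 0.48. CYLD, a deubiquitinase that restrains the pathway as A20 does, was likewise chosen after its values were seen and rose by 0.53. Of 10 other IκB-like proteins and nuclear regulators 6 were lower and 4 did not pass the test, with a median of -0.25. The share called, 60.0%, was below the 69.5% of all genes tested. BCL3, encoding a nuclear IκB relative that binds p50 and p52, fell by 0.76, and NKIRAS1 and NKIRAS2, which encode small GTPase-like proteins that bind IκB, fell by 0.58 and 0.38. NFKBIL1 fell by 0.41. Of the NKIRAS1 reads 91.9% were placed uniquely, and of the NFKBIL1 reads 90.0%.

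Of 17 tested receptors and receptor-proximal genes 12 were lower and 2 higher (82.35%, beside 69.5% of all genes tested), with a median of -0.47. TLR4, the receptor for bacterial lipopolysaccharide, was at 4.87 ± 0.36 CPM with PERK siRNA and 20.3 ± 0.62 CPM with control siRNA (SD, n = 3 each), with a log2 fold change of -2.06 (adjusted p = 2.2e-18), and 92.2% of its reads were placed uniquely. The receptors for TNF moved in opposite directions: TNFRSF1A fell by 0.50, and TNFRSF1B rose, with a log2 fold change of 0.73. LTBR, the lymphotoxin receptor that signals through NIK, fell by 0.50.

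Of 35 tested genes on the list of NF-κB targets 28 were lower and 4 higher (91.4%, beside 69.5% of all genes tested). Their median was -0.93. BCL3 and 3 of the ubiquitin editors and adaptors stand on this list too. IER3, an early response gene linked to survival, was at 34.5 ± 0.49 CPM with PERK siRNA and 134.2 ± 2.79 CPM with control siRNA (SD, n = 3 each), with a log2 fold change of -1.96 (adjusted p = 5.7e-27). MMP9, a gelatinase gene, fell by 1.88, the chemokine gene CXCL1 by 1.90 and SOD2, encoding the mitochondrial superoxide dismutase, by 0.93 on the log2 scale. The genes called higher, chosen after their values were seen, were CCL5 (0.86), PTX3 (0.62), CFLAR (0.46) and PSMB9 (0.11). The 7 targets under the filter, named for that reason and after their values were seen, were TNF, CCL20 and SELE with 0 reads in every sample, CXCL10 with 0 to 1, VCAM1 with 1 to 4, CSF2 with 1 to 15 and CXCL3 with 2 to 19. With no filter beyond 1 read 30 genes of the list were called lower. The lists were drawn up with earlier results of these data known, so their direction is not independent evidence.

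**Figure D5:**
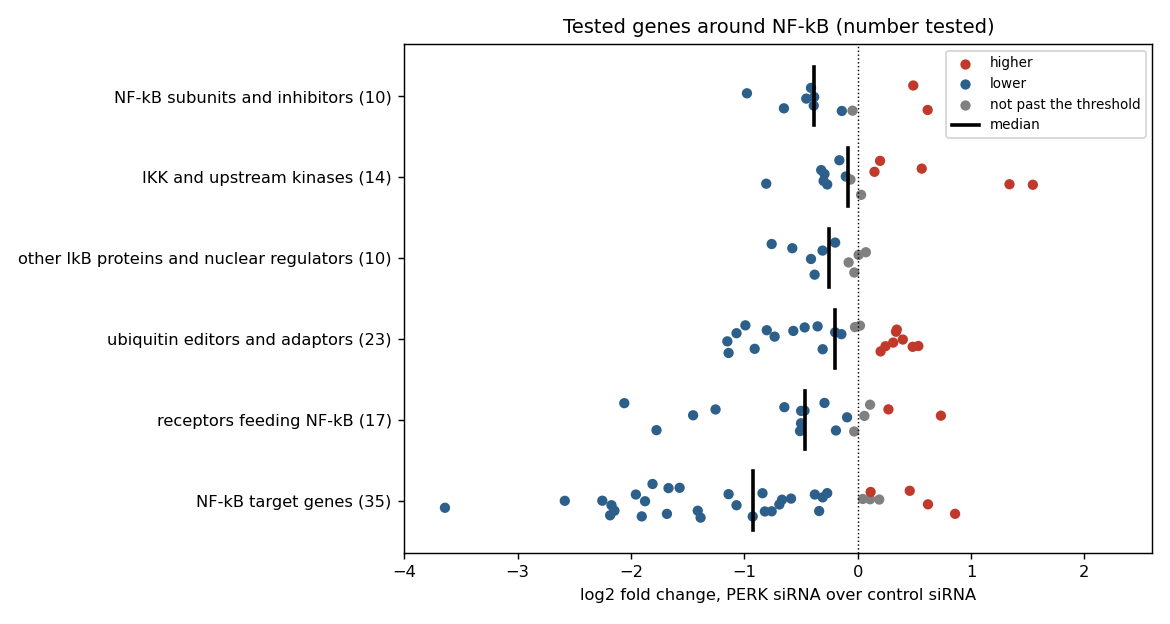
Log2 fold change of PERK siRNA over control siRNA on the x axis for each tested gene of the 10 members and of 5 lists around them, with colour for the call and a black bar for the median. The medians are -0.39 for the members, -0.08 for the kinases, -0.25 for other IκB-like proteins, -0.20 for ubiquitin editors, -0.47 for receptors and -0.93 for targets.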

How the data were processed

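RNA from 6 LX-2 samples was sequenced with a strand-keeping library kit, per the labels' protocols. The authors deposited, for every gene, a count of all exon reads, a count of unique exon reads and TPM, per the file headers. The submitters' processing notes name hg38. Which aligner and counter were used, and whether counting used strand, is not given in the sources used here. Groups and replicate numbers came from the sample titles.

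Total exon reads were tested in edgeR 4.0.16 under R 4.3.3 by the quasi-likelihood test, using group as the only term, TMM scaling, filterByExpr and robust dispersions. Benjamini-Hochberg adjustment ran over 12973 genes, with a threshold of 0.05. The common biological coefficient of variation was 2.16%. The scripts were tested on simulated counts. Replicates differed by more than counting noise (chi-square per degree of freedom 1.65 to 2.31 within groups), so none was merged. All reads of 9 members were placed uniquely, and 99.5% of those of NFKBIB. The deposited TPM equalled reads per exon length, scaled to a constant total, to within a relative difference of 7.1e-08, and were used for levels only.

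The members and lists were chosen with earlier results of these data known. Besides the members and EIF2AK3, up to 4 genes are named from each list, those with the smallest adjusted p among genes whose mean log2 CPM was 0 or more. Any further gene is marked in the text as chosen after its values were seen, apart from cell markers, genes that overlap a member and genes nearest in pattern to a member. Alternatives were RLE, upper-quartile or no factors, other filters, DESeq2 (1.42.0), limma-voom (limma 3.58.1), the replicate number as a block, unique exon reads, leaving out each sample, and a test against a 1.2-fold change. Gene places came from GENCODE 29 (GRCh38) and promoters from RefSeq (GRCh38.p14).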

Additional observations from a re-analysis of the deposited data

How the results depend on the processing

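Over 15 alternatives the direction and the call of 8 members held: NFKB1, NFKB2, RELA, RELB, NFKBIA, NFKBIB, NFKBIE and TNFAIP3. NFKBIZ kept its direction and lost its call with DESeq2 (-0.415, adjusted p = 0.083) and in 3 of the fits that left out a sample. Those 3 gave -0.366 to -0.263, and all fits that left out a sample gave -0.533 to -0.263. REL, never called, ranged from -0.099 to 0.001 when samples were left out, and changed sign without control sample 3. Against a 1.2-fold change NFKB1 and NFKBIZ were not called, and 2345 genes were called higher and 2344 lower, in place of 4469 and 4545. Leaving out each sample gave 4198 to 4294 genes higher and 4334 to 4427 lower. Same-numbered samples of the groups did not deviate together (r of -0.0323 to 0.0106 across genes), and 2 of 6 samples correlated best with their own number. With the replicate block 4460 genes were higher and 4543 lower, and the members called were the same 9. Scaling moved the median log2 fold change of all genes by at most 0.0155 in size. NFKBIZ had 57 to 106 reads per sample, and the cause of its lost calls was not tested.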

Other observations

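Genes whose pattern over the 6 samples lay nearest to that of a member were sought among 10027 genes whose mean log2 CPM was 3 or more, by the Euclidean distance of log2 CPM values centred on each gene's mean. Nearest to RELB, the member with the largest fall, were SNX4 (distance 0.0394, log2 fold change -0.997), NREP (0.0688, -0.99) and KLF10 (0.0711, -0.96), where the median distance was 1.19. Nearest to TNFAIP3, the member with the largest rise, were ALPK1 (distance 0.0468, log2 fold change 0.65), NAA15 (0.0483, 0.61) and TRIM4 (0.0495, 0.64), where the median distance was 0.805. All distances are over the same 6 libraries in 2 groups, and are a description without a test.

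The κB consensus was found in promoter windows of 18.9% of 3639 genes called higher with PERK siRNA, 16.8% of 3709 called lower and 16.6% of 3105 not called. These shares were not tested against each other. More than 1 match in a window was found for 1.59% of tested genes, and for NFKB2, NFKBIB and TNFAIP3 among the members.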
